A study of Homo sapiens with 6 samples.

Results

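Immune checkpoint ligands are surface proteins, and in 1 case a secreted lectin, with which a cell restrains or stimulates the lymphocytes and macrophages that contact it. The 9 genes described here were chosen by name: CD274 (PD-L1), PDCD1LG2 (PD-L2), CD276 (B7-H3), VTCN1 (B7-H4), ICOSLG, PVR (CD155), PVRL2 (NECTIN2), CD47 and LGALS9 (galectin-9). They occupied 10 of the 61695 loci in the authors' deposited count tables, since ICOSLG was listed at 2 loci, and 9 of those 10 loci had an adjusted p-value. Messenger RNA came from EndoC-βH1, an established human pancreatic beta cell line made from fetal pancreas with the simian virus large T antigen and human telomerase, so cells of both groups carry them. There were 3 control libraries and 3 cytokine libraries, each from 75000 cells per well that had adhered for 24 h in serum-free medium with 11 mM glucose. The cytokine cells then received IL-1β at 5 ng/ml, TNF-α at 10 ng/ml, IFN-γ at 50 ng/ml and IL-17 at 100 ng/ml for 24 h, and the question was how acute exposure to inflammatory cytokines changes the transcripts of a human beta cell line. The treatment label places the control cells before exposure, but the extraction protocol gives them 24 h without cytokines, so time in culture and the cocktail cannot be told apart from these sources.

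PD-L1 and PD-L2 bind PD-1 on activated T cells and restrain them, ICOSLG binds ICOS and stimulates T cells, and B7-H3 and B7-H4 are relatives whose receptors are less settled. PVR and NECTIN2 are adhesion proteins read by the inhibitory receptor TIGIT and the activating receptor CD226. CD47 signals to SIRPA on macrophages and restrains phagocytosis, and galectin-9 is a sugar-binding protein that engages HAVCR2 (TIM-3). In type 1 diabetes beta cells are attacked by T cells, and IFN-γ, through JAK1, JAK2 and IRF1, is the best known inducer of PD-L1.

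The authors' deposited tables give the comparison of the groups and no value per library, so levels are group means and neither the spread of single libraries nor the overlap of the groups can be given. Counts here are means of the authors' normalized read counts per library, and their sum over all loci was 40881975. Separate cultures are not stated for the libraries, so a p-value here covers only library-to-library spread, which may be technical. In bulk RNA, fewer cells of a type and less RNA per cell cannot be told apart. The cells carried beta cell transcripts in both groups: PDX1 was at 145 FPKM (fragments per kilobase of transcript, scaled to depth) in control and 146 FPKM in cytokine cells, and NKX6-1 at 91.3 and 90.3 FPKM in the authors' deposited table. Of 10 beta cell markers, 2 rose, 5 fell and 3 did not pass the test in the deposited count table. Beside this and the marker counts that follow, 18.0% of all 30206 tested loci were called higher and 19.7% lower. Of loci of at least 1000 counts, 32.9% were called higher and 45.3% lower. The loci of IAPP, which rose, and of INS and NEUROD1, which fell, also hold other genes, so their values are not of those markers alone. Of 13 leukocyte markers, 7 were tested in the deposited count table, none was higher and 1, a CD68 locus shared with EIF4A1, was lower. Their summed level was 363 FPKM in control and 338 FPKM in cytokine cells, of which that shared locus held 362 and 336 FPKM in the authors' deposited table. PTPRC, which encodes the pan-leukocyte protein CD45, was at 2.71 and 0.657 counts, and CD3D, a subunit of the T cell receptor complex, had no counted read in the authors' deposited tables. Of 10 tested markers of endothelial, fibroblast, exocrine and other islet cells, COL1A1 and KRT19 rose, CPA1 fell and 7 did not pass in the deposited count table. The part of these cell types in the results was not tested.

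All 9 tested loci passed an adjusted p of 0.05 in the authors' deposited DESeq table, against 37.7% of all 30206 tested loci. By gene, 5 ligands were called higher (CD274, ICOSLG, CD47, PVRL2 and LGALS9), against 18.0% of tested loci called higher. LGALS9 enters only through a locus shared with the gene KSR1, so its own change was not measured. The 3 that fell were VTCN1, PVR and CD276, against 19.7% called lower. With only loci of a single protein-coding gene, which leaves out LGALS9 and PVR, 4 ligands were called higher and 2 lower. At a change of at least 2-fold, 3 genes were higher (CD274, ICOSLG and CD47) and 1 was lower (VTCN1), where the same rule called 6.53% and 3.27% of tested loci. Calls are more frequent where counts are high: of the 7868 loci of at least 1000 counts, 78.2% were called, 32.9% higher and 45.3% lower. The loci of CD274, CD47, LGALS9, CD276 and PVR belong to that class. The median log2 fold change of the 9 ligand loci was 0.89, beside 0.05 over all tested loci. This median counts ICOSLG at both of its loci (4.73 and 4.65). With 1 of them left out, the median lies between 0.39 (the LGALS9 locus) and 0.89 (PVRL2).

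**Figure D1:**
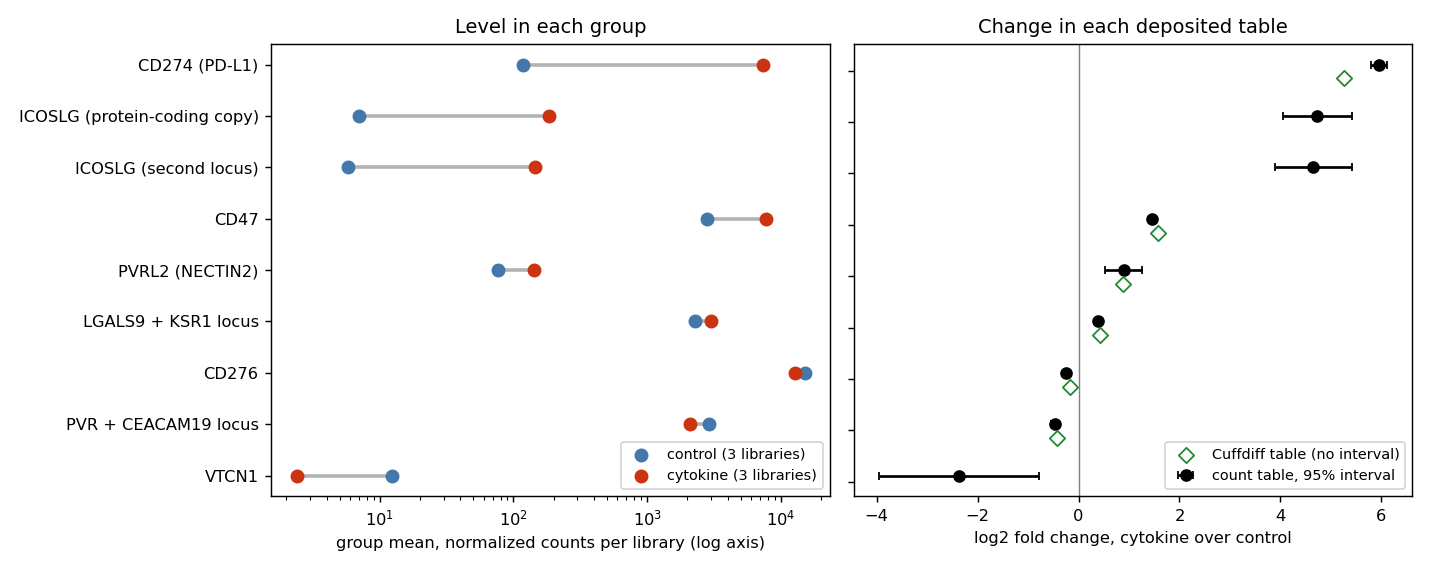
Left, mean normalized counts per library of each ligand locus in control (blue) and cytokine (red) cells, on a log axis, worked out from the authors' deposited mean and fold change. Right, the log2 fold change of cytokine over control with its 95% interval from the deposited count table (black) and, where tested, from the deposited Cuffdiff table (green diamonds). CD274 moves farthest, from 118 to 7305, and VTCN1 has the widest interval.

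CD274 encodes PD-L1, the main ligand of PD-1, and lies on chromosome 9 at 5450503 to 5470566 on the plus strand (hg38). Its promoter is shown because it is the only one among these genes that held more than 1 of the motifs searched. The sequence, from RefSeq (GRCh38.p14), covers chr9:5450292-5450591, from 250 bases before the transcription start to 50 bases after it, and the capitals mark matches to an interferon-stimulated response element core (GAAA, any pair of bases, then GAAA) and to a gamma-activated site, or GAS (TTCNNNGAA), on either strand.
CD274 promoter: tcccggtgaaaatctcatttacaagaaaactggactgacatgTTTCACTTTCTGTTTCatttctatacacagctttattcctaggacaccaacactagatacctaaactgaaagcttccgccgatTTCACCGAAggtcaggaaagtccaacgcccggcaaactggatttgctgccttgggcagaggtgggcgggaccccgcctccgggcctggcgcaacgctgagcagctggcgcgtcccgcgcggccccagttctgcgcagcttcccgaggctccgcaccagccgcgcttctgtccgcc
A pair of overlapping matches to the response element core, on the minus strand, lay 208 to 199 and 202 to 193 bases before the start. A GAS match lay 125 to 117 bases before it. Of 35116 RefSeq promoters of this length, 3.57% held the response element core, 0.259% held it at least 2 times, 7.66% held the GAS, and 0.439% held both motifs. A match is a description of the letters and not a measured binding site.

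The mean level of CD274 was 118 counts per library in control and 7305 in cytokine cells in the authors' deposited table. This is a log2 fold change of 5.95 ± 0.08 (SE, 3 libraries per group), or 61.9-fold with a 95% interval of 55.5 to 69.1, and DESeq's adjusted p is listed as 0. CD274 thus went from a rare transcript to 57.5% of the count level of CD276. It ranked 152 of 30206 tested loci by log2 fold change, and 51 among the 7868 loci of at least 1000 counts in the deposited table. Per length, the level rose from 1.42 to 54.1 FPKM in the authors' deposited Cuffdiff table, a log2 fold change of 5.25 (q = 0.000232). That moved CD274 from above 39.2% of the genes Cuffdiff tested to above 91.6% of them.

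The full-length transcript accounted for most of this. CD274-202, which encodes the 290-residue membrane protein, went from 0.625 to 44.6 FPKM (Cuffdiff q = 0.000833) and from 44.01% to 82.4% of the FPKM of the locus in the authors' deposited isoform table. CD274-203, which has no defined coding sequence, was at 0.499 and 4.59 FPKM (Cuffdiff q = 0.0660), and its share went from 35.2% to 8.48% in the deposited table. The control shares are parts of a locus total of 1.42 FPKM and have no error given, and whether the shares changed was not tested. CD274-201 encodes a form of 176 residues that lacks the 342 coding bases of 1 exon (5457079 to 5457420), the exon of the domain that binds PD-1. Cuffdiff listed it at 0 FPKM for control and gave 0.403 FPKM for cytokine cells (Cuffdiff q = 0.498) in the authors' deposited table. Only 1 of the 5 CD274 transcripts passed the Cuffdiff test, against 9.87% of the 95649 transcripts tested.

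PDCD1LG2, the gene of PD-L2, begins 39965 bases past the end of CD274 on the same strand (5510531 to 5571282). It had no counted read in any of the 6 libraries and was listed at 0 FPKM in both groups of the authors' deposited tables. A count of 0 allows up to 3 reads over the 6 libraries, or 0.5 normalized counts per library, and this covers counting error only. A 0 in the count table alone can mislead: of 17081 loci without a counted read, 370 (2.17%) had at least 1 FPKM in a group of the deposited FPKM table. PDCD1LG2 was at 0 in both tables, so the large change in the neighbouring PD-L1 gene was accompanied by no detectable PD-L2 transcript at this depth.

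The other neighbours of CD274 and PDCD1LG2 differed among themselves. Of 11 tested loci in the deposited count table, 3 rose, 1 fell and 7 did not pass, where 18.0% of all tested loci were called higher and 19.7% lower. The upstream gene JAK2, a kinase that transmits the IFN-γ signal, rose from 444 to 6688 counts, a log2 fold change of 3.91 ± 0.05 (SE, 3 libraries per group; DESeq adjusted p listed as 0). INSL6, a relaxin-family hormone gene, was at 0.639 and 7.19 counts in the authors' deposited table (DESeq adjusted p = 0.0192), too low in control for a fold change. The 1 locus that fell holds ERMP1 and KIAA2026 together, and it fell by 0.18 ± 0.04 on the log2 scale by the deposited count table. RIC1, which lies beyond PDCD1LG2 and was named after its value was seen, was at 918 and 938 counts (log2 fold change 0.03, DESeq adjusted p = 0.804) in the authors' deposited table.

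ICOSLG, the ligand of the co-stimulatory receptor ICOS, was the other B7 gene that rose. The protein-coding gene lies on chromosome 21 at 44215382 to 44241446 on the minus strand. In the authors' deposited table its locus went from 7.01 to 186 counts, which is a log2 fold change of 4.73 ± 0.35 (SE, 3 libraries per group; DESeq adjusted p = 6.17e-41), or 26.5-fold with a 95% interval of 16.5 to 42.4. A second locus named ICOSLG, at 5022493 to 5040666 on the same chromosome, went from 5.75 to 144 counts. Its log2 fold change was 4.65 ± 0.39 (SE, 3 libraries per group; DESeq adjusted p = 6.91e-32) in the authors' deposited table. GENCODE release 44 files the gene at that second place as an artifact.

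The loci of ICOSLG are near-identical copies, which is why a stretch of each is shown. Over the longest aligned block, 11370 bases, 18 bases differed, an identity of 99.8%. The 60-base windows below, chr21:44229754-44229813 (plus strand) and chr21:5033684-5033743 (minus strand), hold 1 of those differences, in capitals.
ICOSLG locus: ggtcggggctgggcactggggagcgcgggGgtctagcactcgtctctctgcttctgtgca
second locus: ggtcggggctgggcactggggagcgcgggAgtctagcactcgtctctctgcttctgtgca
Reads from such stretches can be divided between the copies, so neither locus gives the level of ICOSLG alone, and the pair of changes is 1 observation rather than 2. The abundance is also uncertain. Cuffdiff listed the loci at 0.116 and 0.0727 FPKM in cytokine cells and tested neither. The ratio of mean counts to mean FPKM was 1646 and 1904, where the median of 18114 loci was 85.7, and 55 loci (0.304%) had a ratio at or above the lower of the pair.

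CD276 encodes B7-H3 and was the most abundant of these ligands per length in both groups. The gene lies on chromosome 15 at 73683966 to 73714514 on the plus strand. Its mean fell from 15077 to 12709 counts in the authors' deposited table. The authors' deposited log2 fold change was -0.25 ± 0.02 (SE, 3 libraries per group; DESeq adjusted p = 5.07e-29), a fall of 15.7% with a 95% interval of the fold of 0.818 to 0.868. This is a small change among abundant loci: 27.2% of loci of at least 1000 counts had a lower log2 fold change. Per length the level went from 106 to 94.9 FPKM, a log2 fold change of -0.16 that passed by a narrow margin (Cuffdiff q = 0.0464) in the authors' deposited table. The transcript of the 534-residue form, CD276-202, fell from 62.4 to 52.5 FPKM (Cuffdiff q = 0.00808), whereas CD276-207, which retains an intron, was at 35.7 and 36.0 FPKM (Cuffdiff q = 0.982) in the authors' deposited isoform table. Whether those 2 transcripts differ in their change was not tested.

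VTCN1 encodes B7-H4 and was barely present. The gene lies on chromosome 1 at 117143587 to 117210960 on the minus strand. Its mean was 12.3 counts in control and 2.39 in cytokine cells of the authors' deposited table. The authors' deposited log2 fold change was -2.37 ± 0.81 (SE, 3 libraries per group; DESeq adjusted p = 0.0102), a fall of 80.6% with a wide 95% interval of the fold, 0.0648 to 0.581. The call is lost at an adjusted p threshold of 0.01. In the authors' deposited Cuffdiff table VTCN1 was at 0.106 and 0.0239 FPKM and was not tested.

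**Figure D2:**
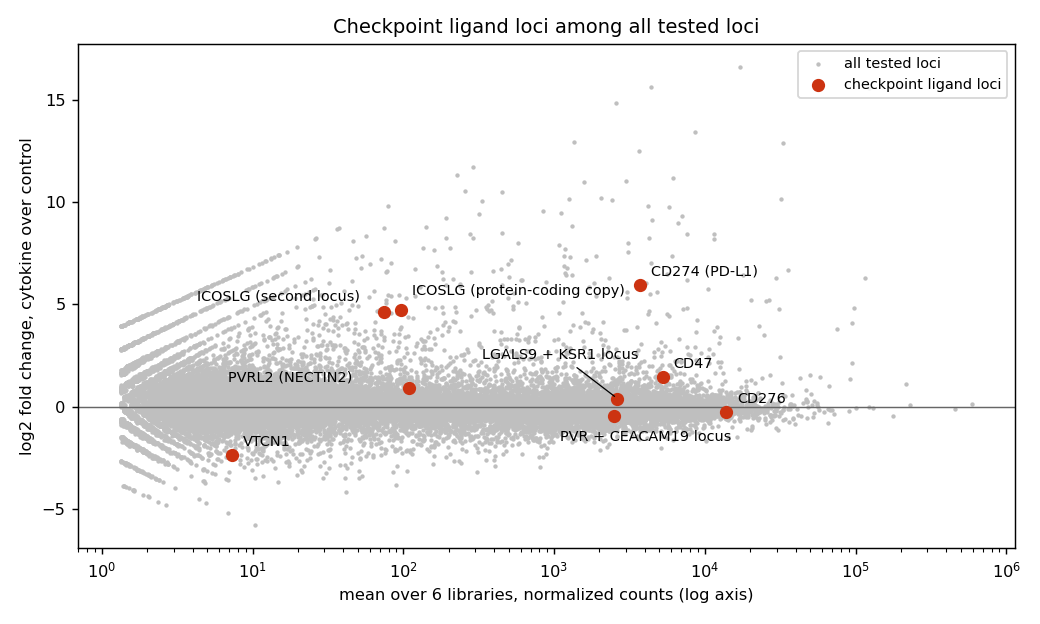
Log2 fold change of cytokine over control (vertical) against the mean normalized count over 6 libraries (horizontal, log axis) for all 30206 tested loci (grey) and the 9 ligand loci (red) in the authors' deposited table. CD274 lies well above the cloud at 5.95, while CD276 lies inside it at -0.25 despite its small standard error.

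CD47, the signal that restrains phagocytosis, rose in both tables from a level that was already high. The gene lies on chromosome 3 at 108043091 to 108091862 on the minus strand. Its mean rose from 2795 to 7707 counts, a log2 fold change of 1.46 ± 0.03 (SE, 3 libraries per group; DESeq adjusted p listed as 0) in the authors' deposited table. The fold was 2.76 with a 95% interval of 2.64 to 2.88, and 3.05% of loci of at least 1000 counts had a higher log2 fold change. Per length it rose from 24.8 to 73.7 FPKM (log2 fold change 1.57, Cuffdiff q = 0.000232) in the authors' deposited table.

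Transcripts of CD47 differ in the cytoplasmic tail, and the ends of the coding sequences of the 2 main ones are printed to show where. Both share 911 coding bases, of which the last 20 are in lower case, and capitals mark what follows up to and including the stop codon, 61 bases in the longer form and 7 in the shorter (hg38, minus strand, from chr3:108051956 downwards in coordinate).
CD47-202: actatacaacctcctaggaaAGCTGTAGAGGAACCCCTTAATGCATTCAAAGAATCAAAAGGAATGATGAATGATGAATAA
CD47-201: actatacaacctcctaggaaTAACTGA
CD47-202, with 323 residues, rose from 16.1 to 48.4 FPKM (Cuffdiff q = 0.000833) in the authors' deposited isoform table. CD47-201, with 305 residues, rose from 7.52 to 19.7 FPKM (Cuffdiff q = 0.000833) in the same deposited table. The longer form held 64.9% of the locus in control and 65.7% in cytokine cells, and the shorter 30.3% and 26.7%. Another transcript, CD47-204, which retains an intron, rose from 0.486 to 1.93 FPKM (Cuffdiff q = 0.000833) in the authors' deposited table. Thus 3 of the 5 CD47 transcripts were called, against 9.87% of the 95649 transcripts tested, and the 2 main forms kept their order.

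The promoter of CD47 (chr3:108090982-108091281, minus strand; RefSeq, GRCh38.p14) is shown for contrast with that of CD274. CD47 rose too, but these 300 bases held no match to either motif, which says nothing of other regions or of the factors themselves.
CD47 promoter: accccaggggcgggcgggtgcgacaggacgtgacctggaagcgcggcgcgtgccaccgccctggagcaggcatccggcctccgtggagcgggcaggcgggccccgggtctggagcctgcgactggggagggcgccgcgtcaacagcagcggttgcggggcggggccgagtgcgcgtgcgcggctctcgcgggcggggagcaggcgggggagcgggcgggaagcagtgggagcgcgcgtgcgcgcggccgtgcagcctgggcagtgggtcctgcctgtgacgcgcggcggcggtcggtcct
Of its bases, 79.0% were G or C, against 57.3% in the CD274 promoter. The table held promoters for 8 of the 9 ligand genes, 9 promoters in all, and apart from CD274 only LGALS9 had a match to the response element core. A form of the κB site (GGGA, any pair of bases, then TTCC), present in 1.61% of all promoters, was in none of the 9.

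**Figure D3:**
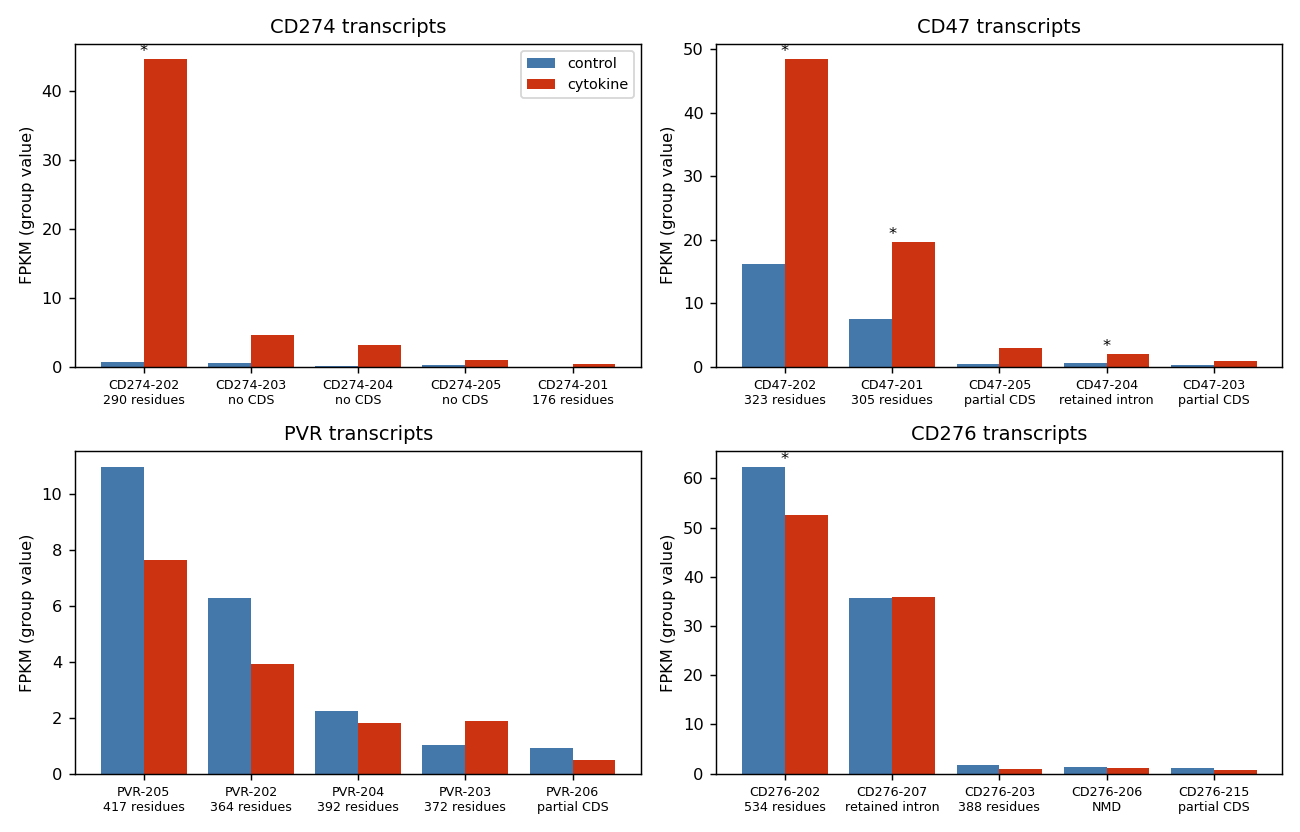
FPKM of the 5 most abundant transcripts of CD274, CD47, PVR and CD276 in control (blue) and cytokine (red) cells, as group values of the authors' deposited isoform table, with a star where Cuffdiff's q was under 0.05 (CDS, coding sequence; NMD, nonsense-mediated decay). CD274-202 goes from 0.625 to 44.6 FPKM, both main CD47 forms rise, and no PVR transcript passes the test.

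PVR and PVRL2, the ligands that TIGIT and CD226 share, moved in opposite directions in the count table. PVR lies on chromosome 19 at 44643798 to 44666162 on the plus strand, and its locus also holds the overlapping gene CEACAM19. The locus fell from 2892 to 2089 counts in the authors' deposited table. The authors' deposited log2 fold change was -0.47 ± 0.04 (SE, 3 libraries per group; DESeq adjusted p = 2.87e-31), a fall of 27.8% with a 95% interval of the fold of 0.684 to 0.762. Per length it fell from 21.9 to 16.4 FPKM (Cuffdiff q = 0.0119) in the authors' deposited table. Transcripts named PVR held 98.2% of the FPKM of the locus in control and 96.8% in cytokine cells, so the value is almost wholly that of PVR.

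The fall could not be assigned to a form of PVR. PVR-205, the 417-residue membrane form, was at 11.0 and 7.66 FPKM (Cuffdiff q = 0.0860) in the authors' deposited isoform table. PVR-202, a form of 364 residues without a membrane anchor, was at 6.28 and 3.95 FPKM (Cuffdiff q = 0.153) in the same deposited table. PVR-203, the other soluble form with 372 residues, was at 1.04 and 1.90 FPKM (Cuffdiff q = 0.628) in the authors' deposited table. None of the 5 PVR transcripts tested by Cuffdiff was called, where 9.87% of all tested transcripts were, although the gene was called.

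PVRL2, now NECTIN2, lies on chromosome 19 at 44846175 to 44889223 on the plus strand. In the authors' deposited count table it rose from 76.0 to 141 counts, which is a log2 fold change of 0.89 ± 0.18 (SE, 3 libraries per group; DESeq adjusted p = 5.25e-06). The fold was 1.86 with a 95% interval of 1.45 to 2.39. In the authors' deposited Cuffdiff table it was at 1.34 and 2.46 FPKM, a log2 fold change of 0.88 that was not called (q = 0.200). The 479-residue form, NECTIN2-202, was at 0.983 and 1.84 FPKM (Cuffdiff q = 0.544), and the 538-residue form, NECTIN2-201, at 0.149 and 0.307 FPKM (Cuffdiff q = 0.918) in the deposited isoform table. Even after its rise, PVRL2 stayed well under the 16.4 FPKM of the PVR locus.

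LGALS9 encodes galectin-9 and lies on chromosome 17 at 27629798 to 27649560 on the plus strand, 3360 bases past the end of KSR1, a scaffold of the RAS pathway. The authors' assembly joined the neighbours into 1 locus, which rose from 2275 to 2987 counts. The log2 fold change was 0.39 ± 0.04 (SE, 3 libraries per group; DESeq adjusted p = 4.13e-23), or 1.31-fold with a 95% interval of 1.25 to 1.38, in the authors' deposited table. Per length the locus rose from 11.1 to 14.9 FPKM (Cuffdiff q = 0.0216) in the authors' deposited table.

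Little of that value belongs to transcripts named LGALS9. The 16 transcripts of that name summed to 0.198 FPKM in control and 0.752 FPKM in cytokine cells, 1.78% and 5.05% of the locus, and Cuffdiff tested none of them in the authors' deposited isoform table. Transcripts named KSR1 summed to 2.62 and 3.01 FPKM, and 12 assembled transcripts without a gene name to 8.29 and 11.1 FPKM, 74.7% of the locus in each group of the deposited table. The change of the locus is therefore not a measurement of galectin-9. The LGALS9 promoter (chr17:27630938-27631237, plus strand; RefSeq, GRCh38.p14) is printed because it held the only other match to the response element core, in capitals, which ends at the transcription start.
LGALS9 promoter: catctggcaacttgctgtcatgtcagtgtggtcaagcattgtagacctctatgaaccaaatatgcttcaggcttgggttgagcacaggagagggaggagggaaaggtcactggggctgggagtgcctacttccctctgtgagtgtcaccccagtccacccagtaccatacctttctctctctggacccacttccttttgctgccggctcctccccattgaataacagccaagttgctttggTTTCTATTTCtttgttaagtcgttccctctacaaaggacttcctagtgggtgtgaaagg

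**Figure D4:**
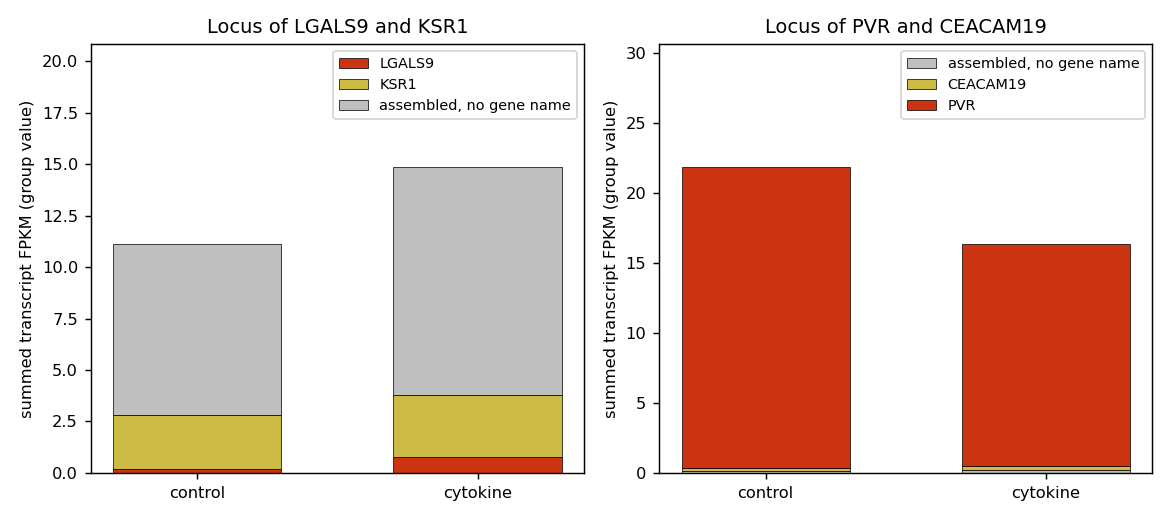
Summed transcript FPKM of the loci that hold LGALS9 with KSR1 (left) and PVR with CEACAM19 (right), by the name of the transcripts, as group values of the authors' deposited isoform table in control and cytokine cells. LGALS9 (red) is 1.78% and 5.05% of its locus, whereas PVR (red) is 98.2% and 96.8% of its own.

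Set side by side per length, the order of the ligands changed. In control cells CD276 stood at 106 FPKM, CD47 at 24.8, the PVR locus at 21.9, CD274 at 1.42 and PVRL2 at 1.34 FPKM in the authors' deposited table. In cytokine cells CD276 stood at 94.9 FPKM, CD47 at 73.7, CD274 at 54.1, the PVR locus at 16.4 and PVRL2 at 2.46 FPKM in the authors' deposited table. CD276 was 74.7 times CD274 in control and 1.75 times in cytokine cells, and its ratio to CD47 went from 4.27 to 1.29. The tables give no error for these group levels, so whether neighbours in the order, such as CD47 and the PVR locus in control cells, differ beyond their spread was not tested. Cuffdiff tested 6 of the 10 ligand loci and called 5 of them, against 35.7% of all 21865 genes tested.

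A wider set of 32 further genes, from the B7, butyrophilin, nectin, galectin, HLA and tumour necrosis factor families and other surface proteins, some of them receptors such as CD40, held 24 tested loci. Of these, 14 rose, 4 fell and 6 did not pass in the authors' deposited count table, beside 18.0% higher and 19.7% lower over all tested loci. Their median log2 fold change was 0.47. BTN3A1 and BTN3A2, butyrophilins sensed by γδ T cells, rose most among loci of a single gene with at least 1 count in control. BTN3A1 went from 515 to 14624 counts, a log2 fold change of 4.83 ± 0.04, and BTN3A2 from 474 to 10745, a log2 fold change of 4.50 ± 0.05 in the authors' deposited table (SE, 3 libraries per group; DESeq adjusted p listed as 0 for both). HLA-E, a ligand of the inhibitory receptor NKG2A on natural killer cells, was the most abundant of the set at 10269 and 140488 counts, a log2 fold change of 3.77 ± 0.02 in the authors' deposited table. LGALS1, the gene of galectin-1, rose from 10.6 to 89.6 counts, and CD40, a receptor that takes part in T cell help, was at 0.342 and 18.2 in the authors' deposited table. CD80 and CD86, the classic B7 ligands, were named after their values were seen. CD80 was too low to test, at 0.118 and 0.247 counts, and CD86 was at 9.60 and 11.2 (DESeq adjusted p = 0.837) in the authors' deposited table.

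Receptors of the ligands are mostly genes of lymphocytes and macrophages. Of 18 receptor and partner genes, 9 were tested in the deposited count table, where 4 rose, 1 fell and 4 did not pass, beside 18.0% higher and 19.7% lower over all tested loci. Of the 4 that rose, PVRIG is in a locus shared by 8 symbols, so its value is not that of PVRIG alone. CD28, CTLA4, SIRPG and CD244 had no counted read, and PDCD1, the gene of PD-1, was at 0.184 and 0.102 counts in the authors' deposited table. THBS1, a secreted protein that binds CD47, rose from 13.1 to 97.0 counts by DESeq (log2 fold change 2.89 ± 0.31), but Cuffdiff did not call it (q = 0.0752) in the authors' deposited tables. P4HB, a protein disulfide isomerase reported to bind galectin-9, was the most abundant at 27828 and 40052 counts, a log2 fold change of 0.53 ± 0.02 in the authors' deposited table. The locus that fell holds HAVCR2 and MED7 together, so its value is not that of HAVCR2 alone. Its log2 fold change of -0.21 (DESeq adjusted p = 0.0173) no longer passed after re-centring on abundant loci (adjusted p = 0.108) of the authors' deposited values. Cuffdiff did not call that locus (q = 0.718).

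Of 30 genes listed as possible regulators of PD-L1, of CD47 or of their promoters, all tested, 19 rose, 3 fell and 8 did not pass in the deposited count table. The share called higher was 18.0% over all tested loci and 32.9% over loci of at least 1000 counts, and the shares called lower were 19.7% and 45.3%. The largest rises were those of NLRC5, a regulator of HLA class I genes, with a log2 fold change of 8.21, and of IRF1, which binds the PD-L1 promoter, from 692 to 70366 counts in the authors' deposited table. SOCS1, a feedback inhibitor of JAK kinases, rose from 54.1 to 3610 counts in the authors' deposited table. STAT2, a partner in the interferon response, had a log2 fold change of 2.52 in the authors' deposited table. In contrast CMTM4, which with CMTM6 protects PD-L1 protein from degradation, fell from 7596 to 2782 counts, a log2 fold change of -1.45 ± 0.03 (SE, 3 libraries per group; DESeq adjusted p listed as 0) in the authors' deposited table. CMTM6, named after its value was seen, was at 5436 and 5734 counts, a log2 fold change of 0.08 ± 0.03 (DESeq adjusted p = 0.0240) in the authors' deposited table. IFNGR1, a receptor chain of IFN-γ also named after its value was seen, did not pass (log2 fold change -0.08, DESeq adjusted p = 0.275) in the authors' deposited table. The tables hold messenger RNA, so the level of PD-L1 protein was not measured.

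**Figure D5:**
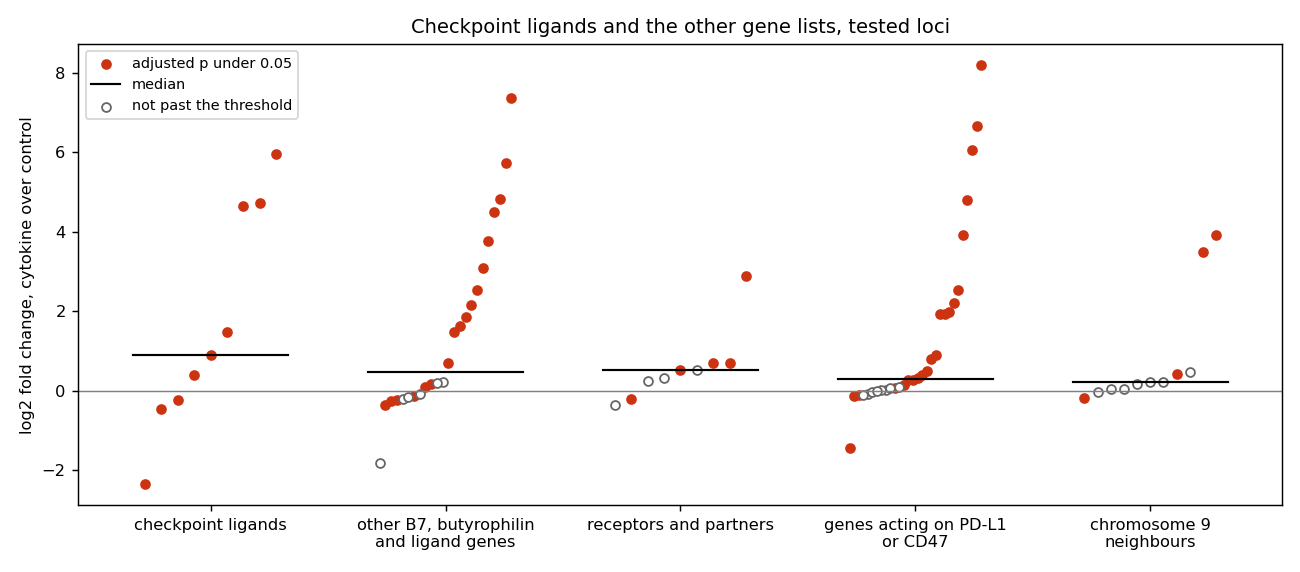
Log2 fold change of cytokine over control for the tested loci of the checkpoint ligands and of 4 other gene lists in the authors' deposited count table, filled where the adjusted p was under 0.05, with a line at each median. The ligand median is 0.89, with ICOSLG counted at both of its loci, and the medians of the other lists lie between 0.20 and 0.53.

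The 5 loci with a change most like that of CD274, by the absolute difference in log2 fold change among 3532 single-gene loci whose mean count lay within 2-fold of it, were MX1, ISG20, CXCL1, MT2A and DDX60. MX1, an interferon-induced antiviral GTPase, was nearest with 6.06 against 5.95, a difference of 0.11, in the authors' deposited table. ISG20, an interferon-induced exonuclease, had 6.27, and DDX60, an antiviral helicase, 5.50. CXCL1, a neutrophil chemokine, and MT2A, a metallothionein, both had 5.59 in the authors' deposited table. This likeness rests on 1 comparison between 2 groups and not on a pattern over samples.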

How the data were processed

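Poly(A) RNA of 3 control and 3 cytokine libraries was sequenced after directional library preparation, per the labels' protocols. The submitters' processing notes name build hg38, STAR 2.5.2b, FastQC 0.10.1, bcl2fastq and StringTie, and DESeq and Cuffdiff 2.2.1. For the read counter, strand setting and annotation, no name was found in the sources used. The authors' deposited count tables give the mean signal, which is the normalized read count over 6 libraries, the log2 fold change with its SE, a score (their ratio), and the p-value and adjusted p-value, per the file headers. The deposited FPKM tables give group FPKM values, p-values and q-values of Cuffdiff for genes and transcripts, per the file headers.

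Since no table holds values per library, the authors' deposited tests were used, at an adjusted p of 0.05. Group means were computed from the deposited mean and fold change, taking both groups as equal in size, and 95% intervals from the deposited SE on a normal scale. Re-centring on the median of loci of at least 1000 counts, a shift of -0.06, was tested on simulated data. Ligands were matched by symbol, and transcripts by identifier to GENCODE release 44 (69 of 74). From each further list, the text names called genes with a log2 change of at least 1, at most the 6 largest each way, and the most abundant one. The cell type markers and PDCD1 were not named by this rule. Other genes named outside it are marked or are counts of few members. The ligands and lists were chosen with earlier results of these data known. Some genes of the lists are not reported here by name. Locus values belong to all genes of the locus. Per-sample depth is unknown, and only its mean is given. Computation used scipy 1.17.1, numpy 2.4.6, pandas 2.3.3, matplotlib 3.10.9 and Python 3.11.15. Alternatives were the Cuffdiff table, a threshold of 0.01, re-centring, single-coding-gene loci, a minimum of 10 counts, a log2 change of at least 1 and a transcript minimum of 0.1 FPKM.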

Additional observations from a re-analysis of the deposited data

How the results depend on the processing

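Under the authors' deposited Cuffdiff table, 3 ligand genes were called higher in place of 5, because ICOSLG was not tested and PVRL2 (0.88, q = 0.200) was not called. Both counts include LGALS9 through the locus it shares with KSR1. With a log2 change of at least 1, 3 ligand genes were higher in place of 5 and 1 was lower in place of 3, by construction. VTCN1 (the authors' adjusted p = 0.0102) lost its call at a threshold of 0.01. Re-centring turned no ligand's direction and ended no ligand's call. Loci with 1 protein-coding gene leave out LGALS9 and PVR, and the minimum of 10 counts leaves out VTCN1. No paired analysis was possible because the tables hold no values per library, and for the same reason leaving out single libraries was not run. The floor for near-zero control means was needed by no ligand. Depth limits PDCD1LG2 and VTCN1.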

Other observations

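Antisense to the end of KSR1, upstream of LGALS9 on chromosome 17 (27625484 to 27626438, minus strand), the lncRNA RP11-19P22.8 was at 3.58 and 5.65 FPKM in the authors' deposited table (Cuffdiff q = 0.416 for its transcript) and had no counted read in the count table. Of the assembled transcripts without a gene name at the LGALS9 and KSR1 locus, 2 of the 8 tested were called by Cuffdiff in the authors' deposited isoform table. Over all tested transcripts, 9.87% were called.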
